A study of Mus musculus with 4 samples.

Results

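The tolloid group described here holds 5 genes: the metalloproteinase genes Bmp1, Tll1 and Tll2, and the procollagen C-proteinase enhancer genes Pcolce and Pcolce2. They were taken by symbol from tables of 38921 gene rows, where each symbol had 1 row, and all 5 were among the 23046 rows tested. Poly-A RNA came from cultured mouse pancreatic fibroblasts in 4 libraries, 2 from wild type mice and 2 from KPC mice, both of a strain given as mixed. KPC usually denotes mice that develop pancreatic cancer after Cre acts in their pancreatic epithelial lineage; the labels give the name alone, with no age and no number of animals. All cells were grown in serum-containing medium after a gravity separation, so every value below describes cultures, which also held RNA of other cell types. The comparison asked how KPC fibroblasts differ from wild type fibroblasts in these genes.

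Fibrillar collagens are secreted as procollagens whose globular ends keep them soluble. Tolloid proteases, which belong to the astacin family of zinc metalloproteinases, include those that cut off the carboxy-terminal propeptide. Collagen can then assemble into fibrils. Bmp1 encodes the main procollagen C-proteinase and its longer splice form mammalian tolloid, and Tll1 and Tll2 encode the tolloid-like relatives. Pcolce and Pcolce2 encode secreted glycoproteins without protease activity that bind the procollagen propeptide and speed its removal. Proteases of the tolloid group also process lysyl oxidase and small proteoglycans, and free BMP ligands by cutting the antagonist chordin. Not every member need have each of these activities, and no activity was measured here.

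The 3 protease genes resemble each other, so the coding stretch around the zinc-binding motif of the catalytic domain is shown to let a reader see how far short reads could be told apart. Each stretch has 93 bases and lies within 1 coding exon on the minus strand of the mm10 build (GENCODE M21): chr8:64101868-64101960 in exon 6 of 21 for Tll1, chr19:41130511-41130603 in exon 6 of 21 for Tll2, and chr14:70508030-70508122 in exon 5 of 20 for Bmp1. Capitals mark the bases that are not the same in all 3 genes, and the motif itself covers bases 31 to 63.
Tll1: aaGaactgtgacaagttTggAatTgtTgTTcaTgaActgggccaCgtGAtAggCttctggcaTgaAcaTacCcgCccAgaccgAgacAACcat
Tll2: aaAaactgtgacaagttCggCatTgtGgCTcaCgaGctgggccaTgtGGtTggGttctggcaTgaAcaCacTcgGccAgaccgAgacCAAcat
Bmp1: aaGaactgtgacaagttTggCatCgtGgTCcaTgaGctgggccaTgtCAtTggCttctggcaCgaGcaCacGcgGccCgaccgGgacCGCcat

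In this stretch 24 positions differed among the 3 genes, 8 of them inside the motif. Tll1 differed from Tll2 at 16 bases and from Bmp1 at 17 bases. Over the whole coding sequence, Tll1 was 71.0% identical to Bmp1 and 70.7% identical to Tll2 at aligned bases, and Tll2 was 73.7% identical to Bmp1. The 2 enhancer genes were 63.8% identical to each other. The longest run shared by the Tll1 and Bmp1 coding sequences was ggcaagaactgtgacaagtttgg, whose 23 bases are fewer than the 37 that a single read covered most often in the deposited tables. Of all windows of 37 bases in the annotated transcripts, 0.445% in Tll1, 0% in Tll2, 0.344% in Bmp1, 2.10% in Pcolce and 0.0436% in Pcolce2 also occurred in a transcript of another gene. The search took in all annotated transcripts of each gene and both strands. Among the shared windows were 3 that Tll1 and Bmp1 had in common, so a read there would match both genes. How reads with mismatches were placed is not given in the sources used here.

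Counts summed to between 22302141 (wild type 2) and 68312367 (KPC 2) per library. Levels are given as CPM, counts scaled to the library total, after TMM factors that correct for library composition. The labelled cell type was checked against 10 fibroblast markers, all of which were detected in every library and which summed to between 11093 and 12806 CPM; the proteoglycan gene Lum was the lowest, at 0.171 CPM in wild type 1. The sum does not show differences of single fibroblast markers. Vim (3695 and 2157 CPM in wild type, 1731 and 1698 in KPC) and Pdgfrb (194 and 132, then 69.1 and 118) were lower in both KPC libraries. Thy1 and Col1a1 were higher in both, and the other fibroblast markers overlapped. Of all tested rows, 20.5% were lower and 20.6% higher without overlap. The libraries also differed in markers of other cells. Macrophage markers summed to 24.7 and 217 CPM in wild type cells and 974 and 2106 CPM in KPC cells, endothelial markers to 781 CPM in wild type 1 (47.9 CPM or less in the others), and endocrine markers to 742 CPM in wild type 2 (1.71 CPM or less in the others). Across genes, wild type 2 was closer to both KPC libraries than to wild type 1. Its Pearson's r on log2 CPM was 0.969 with KPC 2, 0.958 with KPC 1 and 0.949 with wild type 1. Genes are not independent replicates.

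Among the proteases, Tll1 was the gene whose groups did not overlap. The Tll1 row (chromosome 8, 64014770 to 64205993 as deposited) held 51.4 CPM in wild type 1, 29.7 CPM in wild type 2, 5.30 CPM in KPC 1 and 5.35 CPM in KPC 2. Both KPC libraries were low and close together, both wild type libraries were high, and the groups did not overlap: the lower wild type library stood 5.56 times above the higher KPC library. The log2 fold change of Tll1, KPC against wild type, was -2.93 ± 0.32 (SE, n = 2 each). Wild type averaged 40.6 ± 15.3 CPM and KPC 5.33 ± 0.0342 CPM (SD, n = 2 each). The group was chosen by gene family with these measured values known, Tll1 having been selected on its small p in this same contrast, so the values are a description. In RNA of bulk cultures, fewer cells that express a gene and less of its RNA per cell cannot be told apart.

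**Figure D1:**
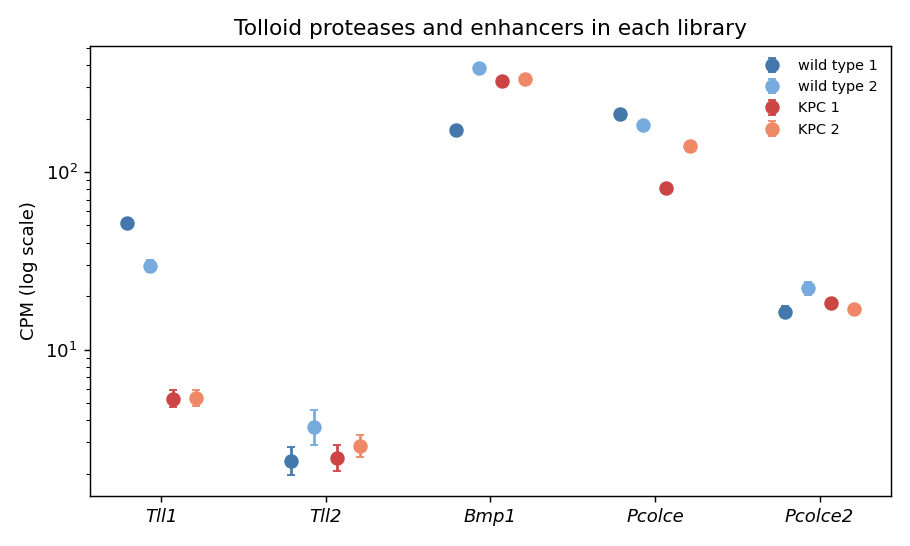
CPM on a log axis for each of the 5 genes in the 4 libraries, with exact 95% Poisson intervals of the counts, which cover counting error only. Tll1 lies at 29.7 CPM or more in wild type and at 5.35 CPM or less in KPC, and the Bmp1, Tll2 and Pcolce2 values of the 2 groups overlap.

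The counts behind the Tll1 values were 2701, 665, 312 and 363. For counting error alone the exact 95% Poisson intervals ran from 27.5 to 32.1 CPM in wild type 2 and from 4.82 to 5.93 CPM in KPC 2. Reads reached into introns, since the bases covered by Tll1 reads in wild type 1 (11397) exceeded the 7758 bases of its annotated exons. In the other 3 libraries the Tll1 reads covered 5879, 4740 and 6015 bases. As a share of the exon bases this was 75.8% in wild type 2 with 665 reads, and 61.1% and 77.5% in KPC with 312 and 363 reads. The positions of the covered bases are not given, so the spread of reads along the row cannot be seen.

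Markers of endothelial and Schwann cells were highest in wild type 1, the library with the most Tll1. The 9 endothelial markers summed to 781 CPM in wild type 1, 47.9 in wild type 2, then 23.1 in KPC 1 with 33.8 in KPC 2, and 7 of them were lower in KPC with no overlap between groups, where 20.5% of all tested rows were. None of the 9 was at 0 in any library. The 6 Schwann markers summed to 26.7, 3.67, 1.17 and 0.840 CPM, and 4 of the 5 tested were lower in both KPC libraries; Foxd3 was at 0 counts in KPC 1. Endocrine markers were highest in wild type 2, at 742 CPM, and stood at 0.510 and 0.988 CPM in KPC; 4 of the 5 tested were lower in both KPC libraries. Markers of pericytes and smooth muscle summed to 161, 135, 232 and 172 CPM. Among these Cspg4, the NG2 proteoglycan gene, singled out after its values were seen, stood at 102, 31.7, 14.3 and 15.1 CPM, which is the order of the libraries in Tll1. The other markers of that list did not share this direction without overlap. Myh11 (48.3, 99.0, 210 and 148 CPM) and Kcnj8 (at most 1.38 CPM) were higher in both KPC libraries, and Rgs5, Abcc9 and Notch3 overlapped. The log2 fold change of Tll1 was -2.48 ± 0.22 (SE) without wild type replicate 1 and -3.27 ± 0.20 (SE) without wild type replicate 2. In the opposite direction, all 11 tested macrophage markers were higher in both KPC libraries (the twelfth, Adgre1, had no row under that symbol), and 4 of 9 epithelial markers were, against 20.6% of all tested rows. The part of these cell types in the Tll1 difference was not tested.

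**Figure D2:**
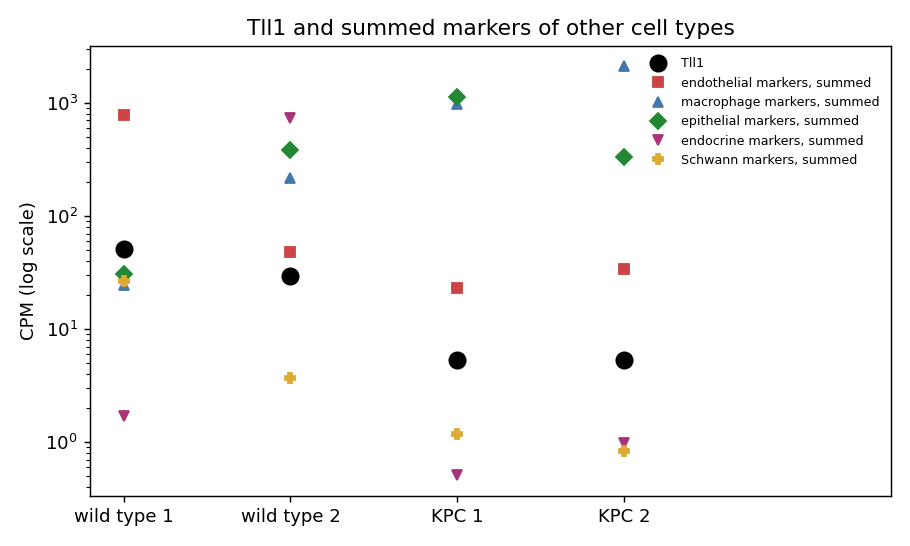
Tll1 (black circles) and the summed CPM of marker lists of other cell types in each library, on a log axis. Endothelial markers are at 781 CPM in wild type 1 and at 47.9 CPM or less in the other libraries, and Tll1 is at 51.4 CPM in wild type 1 and 29.7 CPM in wild type 2.

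Bmp1, per length of exon the most abundant protease of the group in every library, had values that overlapped between the groups. Its row (chromosome 14, 70474557 to 70520260) held 173 CPM in wild type 1, 385 in wild type 2, then 327 in KPC 1 with 332 in KPC 2. Wild type 1 was low, wild type 2 was the highest of the 4, and the KPC libraries lay between them, 1.02-fold apart. The log2 fold change was 0.24 ± 0.40 (SE), and the gap within wild type (2.23-fold) exceeded the difference between groups (1.18-fold). The sign turned with the wild type library used: the log2 fold change of Bmp1 was -0.22 without wild type replicate 1 and 0.93 without wild type replicate 2. These counts do not tell the short Bmp1 form from the longer mammalian tolloid form.

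Tll2 was the least abundant member per length of exon in every library. The row (chromosome 19, 41083981 to 41206774) held 2.36 and 3.67 CPM in wild type cells against 2.46 and 2.86 in KPC cells, from 124, 82, 145 and 194 counts. Both KPC values lay between the wild type values. The log2 fold change of Tll2 was -0.17 ± 0.33 (SE), and it was 0.18 without wild type replicate 2. The exact 95% Poisson interval of wild type 2, the highest library, ran from 2.92 to 4.55 CPM and overlapped that of KPC 2, which reached 3.29 CPM. It did not overlap those of wild type 1 (1.96 to 2.81 CPM) and KPC 1 (2.08 to 2.90 CPM).

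Of the enhancers, Pcolce was lower in KPC, with no overlap between the groups. The Pcolce row (chromosome 5, 137605103 to 137613784) held 212 CPM in wild type 1, 185 in wild type 2, but 81.0 in KPC 1 with 140 in KPC 2. The wild type libraries were 1.15-fold apart and the KPC libraries 1.73-fold apart, with KPC 1 the lowest, and the higher KPC library was 1.32 times below the lower wild type library. The log2 fold change was -0.85 ± 0.31 (SE, n = 2 each), which corresponds to a level 1.80 times as high in wild type. Its size rested on which KPC library was used, at -0.50 without KPC replicate 1 and -1.30 without KPC replicate 2.

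The Pcolce row overlaps that of Fbxo24 over 1281 bases, and both genes lie on the minus strand, so reads there cannot be assigned to either. The whole Fbxo24 row held 1550, 616, 1521 and 1771 counts against 11157, 4138, 4765 and 9487 for Pcolce. Most of the Fbxo24 counts fell on the processed pseudogene Gm16089, which lies inside Fbxo24 and outside Pcolce. The remaining 170, 91, 178 and 196 counts are at most 3.74% of the Pcolce counts in any library.

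Pcolce2 was 5.38 to 15.7 times less abundant than Pcolce per length of exon, and its groups overlapped. Its row (chromosome 9, 95637601 to 95698096) held 16.4 and 22.1 CPM in wild type cells against 18.2 and 16.8 in KPC cells. The KPC values lay between the wild type values, and the whole spread was 1.35-fold. The log2 fold change of Pcolce2 was -0.13 ± 0.22 (SE), and it was 0.10 without wild type replicate 2. Overlapping antisense rows, Gm16126 and Gm16127, held at most 103 and 33 counts, against at least 494 for Pcolce2.

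**Figure D3:**
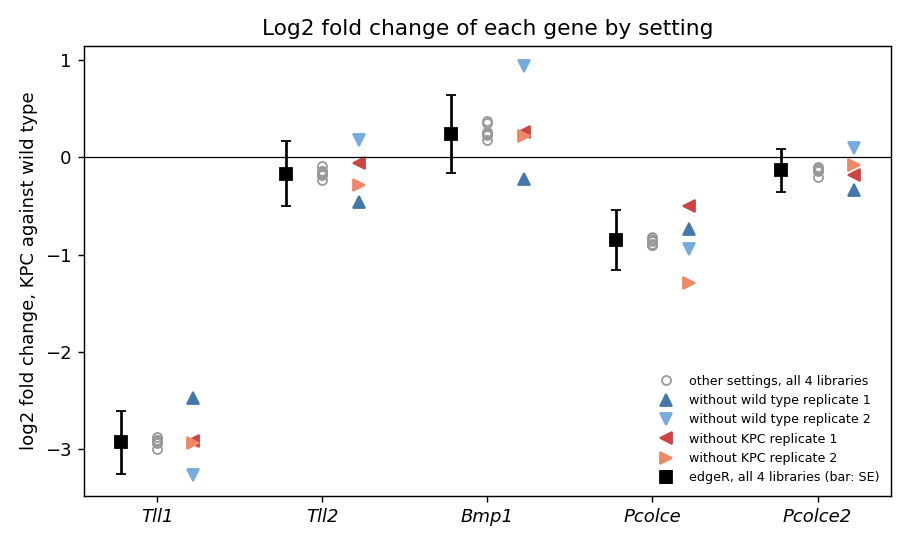
Log2 fold change of KPC against wild type for each gene by edgeR (black squares with SE), under 8 other settings with all libraries (open circles) and with each library left out (triangles). Tll1 stays between -3.27 and -2.48, Pcolce stays below 0, and the signs of Bmp1, Tll2 and Pcolce2 depend on the wild type library left out.

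No member passed edgeR's quasi-likelihood test over all 23046 rows, with Benjamini-Hochberg adjusted p from 0.211 (Tll1) to 0.926 (Tll2). Nor did any other row, so 0% of all rows were called, and DESeq2 called 1 of the 5 (Tll1, lower), where it called 1.28% of all rows lower and 1.44% higher. Without wild type replicate 2 edgeR called Tll1 (adjusted p = 0.0127) among 835 rows in all. At an unadjusted p under 0.05 edgeR had 2 of 5 members lower (Tll1 and Pcolce) and 0 higher, where 3.94% of all rows were lower and 4.73% higher. Without overlap between groups, 2 of 5 members were lower in KPC, where 20.5% of all rows were, and 0 were higher, where 20.6% were. In log2 fold change, 217 of the 23046 rows lay at or below Tll1 and 1530 at or below Pcolce. Since the genes were chosen with this contrast known, these counts are a description. The labels call the libraries biological replicates without naming animals or cultures, so a p-value here measures library-to-library spread, which may be technical.

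Per length of exon, levels can be compared between the genes; here CPM was divided by the kilobases of annotated exon, and reads from introns are included. In wild type 1 the order was Pcolce at 55.5 CPM per kb, Bmp1 at 19.5, Tll1 at 6.62, Pcolce2 at 3.54 and Tll2 at 0.499. In wild type 2 Pcolce stood at 48.4 and Bmp1 at 43.4 CPM per kb, followed by Pcolce2 at 4.78, Tll1 at 3.83 and Tll2 at 0.775. In KPC 1 Bmp1 came first at 36.8 CPM per kb, then Pcolce at 21.2, Pcolce2 at 3.94, Tll1 at 0.684 and Tll2 at 0.521. Pcolce headed both wild type libraries, although Pcolce and Bmp1 were close in wild type 2 and also in KPC 2 (36.6 and 37.4 CPM per kb). Tll1 and Pcolce2 exchanged places between the wild type libraries, and in both KPC libraries Tll1 lay nearest to Tll2, which stood at 0.604 against 0.690 CPM per kb for Tll1 in KPC 2.

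Tll1 made up 24.9% and 7.98% of the summed per-length level of the 3 proteases in wild type and 1.80% and 1.78% in KPC. Bmp1 made up 73.2% and 90.4% in wild type and 96.8% and 96.7% in KPC. The summed protease level itself did not separate the groups, at 26.6 and 48.0 CPM per kb in wild type cells against 38.0 and 38.7 in KPC cells. The summed enhancer level did, at 59.1 and 53.2 CPM per kb in wild type cells against 25.1 and 40.2 in KPC cells. The ratio of enhancer to protease RNA per length was 2.22 and 1.11 in wild type and 0.661 and 1.04 in KPC, so wild type 2 and KPC 2 were nearly alike and wild type 1 stood apart.

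**Figure D4:**
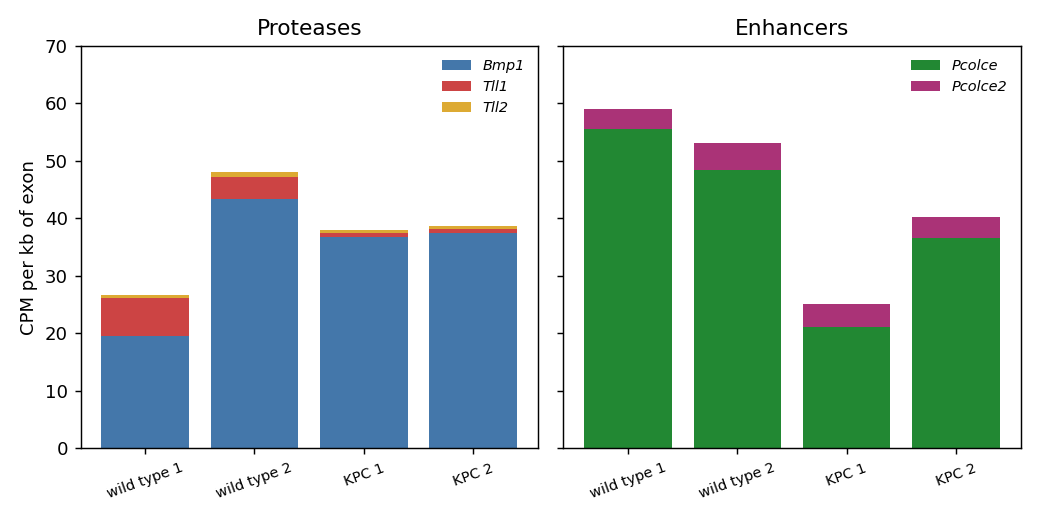
Stacked bars of CPM per kb of annotated exon for the proteases (left) and the enhancers (right) in each library, with no error bars because each bar is 1 library. Tll1 makes up 24.9% and 7.98% of the protease bar in wild type and under 2% in KPC, and the enhancer bars are lower in both KPC libraries.

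The RNA of the chief substrate gene Col1a1 was not lower in KPC, unlike that of Pcolce. Col1a1, which encodes the alpha-1 chain of type I collagen, stood at 4088 and 4716 CPM in wild type cells against 4802 and 5245 in KPC cells. Relative to it, Pcolce stood at 51.9 and 39.2 counts per 1000 Col1a1 counts in wild type and 16.9 and 26.7 in KPC. Tll1 stood at 12.6 and 6.31 per 1000 Col1a1 counts in wild type and 1.10 and 1.02 in KPC. Bmp1 stood at 42.3 and 81.7 in wild type and 68.0 and 63.3 in KPC on that scale, and its groups overlapped. The groups of Tll1 and Pcolce did not overlap on this scale either.

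The fibrillar procollagen genes held values on both sides of 0. Of 11 genes on the list 10 were tested, 5 had a positive and 5 a negative log2 fold change, and the median was -0.04 against -0.01 for all tested rows. None passed the edgeR test over all rows. There was 1 lower (Col5a2) and 0 higher at an unadjusted edgeR p under 0.05. At that threshold 3.94% of all rows were lower and 4.73% higher. Col5a2, a chain of the type V collagen that helps start fibrils, stood at 1237 and 1477 CPM in wild type cells against 727 and 913 in KPC cells, with a log2 fold change of -0.73 ± 0.21 (SE). Col5a1 (686 and 873 against 603 and 674 CPM) and Col11a1 (57.5 and 35.7 against 32.0 and 27.9 CPM) were also lower in both KPC libraries. Col1a2 overlapped between the groups, at 2880 and 2313 against 2550 and 2860 CPM. Col3a1, of type III collagen, stood at 560 and 861 against 855 and 1806 CPM, and KPC 2 held its high value. The type II gene Col2a1 was too low to be tested: wild type 1 held 12.4 CPM and no other library more than 0.179 CPM.

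The list of other tolloid substrates held values on both sides of 0. Of 19 genes 16 were tested, with 8 positive and 8 negative log2 fold changes and a median of -0.0018; 0 passed over all rows, and 0 higher and 4 lower had an unadjusted edgeR p under 0.05, where 4.73% of all rows were higher and 3.94% lower. Lox, the lysyl oxidase whose proenzyme Bmp1 cuts, stood at 751 and 1177 CPM in wild type cells against 356 and 508 in KPC cells. Bgn, which encodes the proteoglycan biglycan, stood at 1640 and 1439 against 567 and 889 CPM. Ltbp1, encoding a latent TGF-beta binding protein, stood at 125 and 109 against 65.8 and 46.8 CPM. For perlecan (Hspg2) the values were 453 and 279 against 219 and 184 CPM. These 4 genes had log2 fold changes from -1.16 (Lox) to -0.86 (Hspg2), and in each the groups did not overlap. The groups overlapped for the proteoglycan genes Dcn (log2 fold change -0.03) and Ogn (-0.28) and for the lysyl oxidase relative Loxl1 (-0.39).

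On the higher side, Igfbp3, an IGF binding protein gene, stood at 28.5 and 34.1 CPM in wild type cells against 111 and 40.9 in KPC cells. Epithelial markers summed to 30.7 and 387 CPM in wild type cells against 1137 and 329 in KPC cells. Mesothelial markers summed to 2.13 and 16.9 against 90.5 and 27.7 CPM. KPC 1 was the highest library in Igfbp3 and in both sums, and wild type 2 exceeded KPC 2 in the epithelial sum only. The part of these cell types in the Igfbp3 values was not tested. Gdf11, which encodes a TGF-beta family ligand whose prodomain tolloid proteases cut, stood at 12.7 and 14.9 against 17.2 and 19.0 CPM, with a log2 fold change of 0.39 ± 0.19 (SE). Neither gene had an unadjusted edgeR p under 0.05 (0.053 for Igfbp3 and 0.104 for Gdf11). The chordin gene Chrd was low in every library, at 2.57 and 0.805 against 1.12 and 0.988 CPM, and overlapped between the groups.

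**Figure D5:**
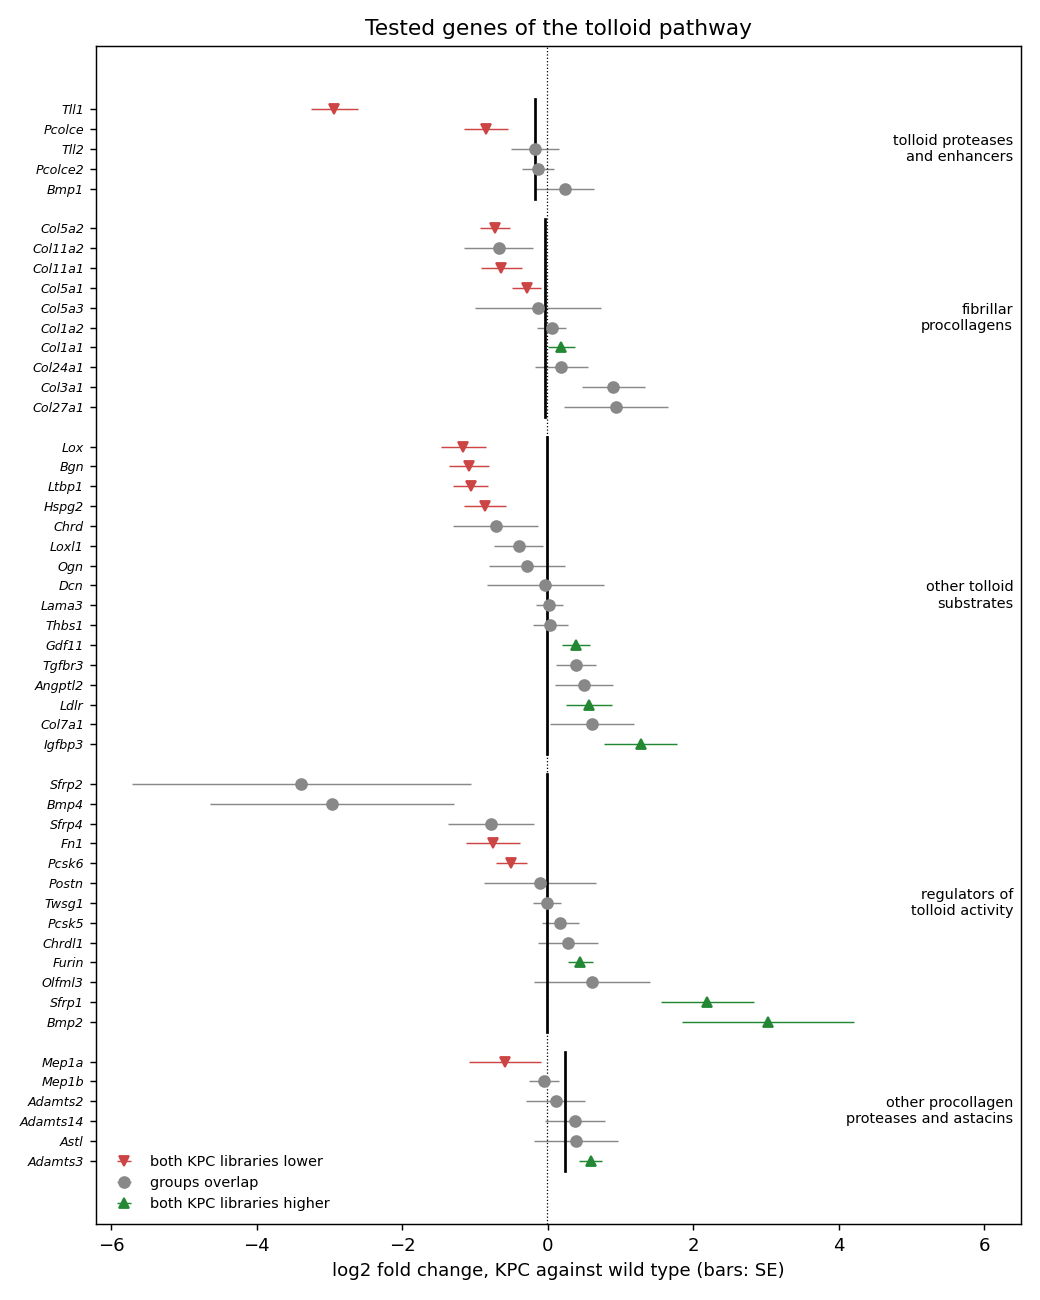
Log2 fold change with SE of every tested gene of the 5 lists, with the median of each list (solid line) and of all tested rows (dotted line). Red triangles are lower and green triangles higher in both KPC libraries, and grey circles mark groups that overlap; Tll1 lies at -2.93 and the medians lie between -0.17 and 0.24.

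Regulators of tolloid activity included the convertase that activates the proteases. All 13 genes were tested, with 6 positive and 7 negative log2 fold changes and a median of -0.01. Of these, 0 passed over all rows, and 2 higher and 0 lower had an unadjusted edgeR p under 0.05. At that threshold 4.73% of all rows were higher and 3.94% lower. Furin, which removes the prodomain of tolloid proteases, stood at 56.5 and 55.5 CPM in wild type cells against 80.9 and 72.2 in KPC cells. Pcsk6, a related convertase gene, stood at 8.14 and 9.35 against 6.09 and 6.30 CPM. Sfrp1, which encodes a secreted Wnt antagonist, stood at 47.7 and 16.3 against 96.5 and 197 CPM, and its relative Sfrp2 at 33.7 and 0.0447 against 0.170 and 3.05 CPM. Sfrp2 thus came mainly from wild type 1 and differed widely within both groups. The fibronectin gene Fn1 stood at 1777 and 889 against 885 and 701 CPM, so that wild type 2 and KPC 1 were nearly equal.

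A further list holds the proteases that remove the other, amino-terminal propeptide, together with other astacins. Adamts2, the main procollagen N-proteinase, overlapped between the groups at 134 and 78.2 CPM in wild type cells against 81.9 and 147 in KPC cells. Adamts3, a related N-proteinase gene, stood at 52.0 and 50.8 against 78.8 and 76.1 CPM, with a log2 fold change of 0.59 ± 0.16 (SE). All 6 genes of this list were tested, with a median of 0.24. Of these, 0 passed over all rows, and Adamts3 alone had an unadjusted edgeR p under 0.05. At that threshold 4.73% of all rows were higher and 3.94% lower. Of the other astacins, the ovastacin gene Astl stayed at or below 0.313 CPM and the meprin gene Mep1a at or below 0.313 CPM. The Mep1b row held 156 to 205 CPM, but its reads covered at most 733 bases, against 2625 annotated exon bases in a row of 27855. Where in the row these covered bases lie is not given.

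The genes whose profile over the 4 libraries lay nearest to each member were found by Euclidean distance between log2 CPM values centred on each gene's mean, among 10352 rows of at least 5 CPM on average. Nearest to Tll1 were Gata2, a transcription factor gene, at a distance of 0.44, the kallikrein gene Klk8 at 0.98 and the zinc finger gene Zfp949 at 0.98. Gata2 stood at 20.4 and 9.57 CPM in wild type cells against 2.33 and 2.58 in KPC cells. Nearest to Pcolce were Eva1b (distance 0.04), the glypican gene Gpc4 (0.15) and the homeobox gene Hoxb5 (0.19), and Gpc4 stood at 119 and 104 against 46.5 and 70.4 CPM. Bmp1 was nearest to Gfpt2, Dynlt1f and Trim34a, of which the last 2 belong to families of close copies and are uncertain. Tll2 was nearest to Smtn, Cox19 and Plod3, and Pcolce2 to Trappc2l, Fbxo30 and Snupn. With 4 libraries such likeness describes these libraries only.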

How the data were processed

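The members and gene lists were chosen with earlier results of these data known, and 1 gene of the substrate list is not reported here. Tools named in the submitters' processing notes are TopHat2 2.0.3, FastQC 0.10.1, bedtools and SAMtools 0.1.18, and the build is mm10 (GRCm38); their roles are not given in the sources used here. Per sample the authors deposited 1 table without a header, with a raw read count for each gene interval beside its length, its covered bases and the covered fraction; the deposited fraction was not used further. Interval coordinates are printed as deposited.

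The deposited counts were fitted in edgeR 4.0.16 (R 4.3.3): filterByExpr (minimum count 10), TMM factors, and a quasi-likelihood test (two-sided) between the groups, Benjamini-Hochberg adjusted over 23046 rows at 0.05. Each SE is the unshrunk log2 fold change over the root of its F statistic. An exact permutation test of 2 against 2 libraries has 6 arrangements, cannot reach 0.05 and was not used. Alternatives were other normalization factors and count filters, DESeq2 1.42.0, limma 3.58.1 voom, a replicate block, and leaving out each library; edgeR, DESeq2 and voom were tested on simulated data. Exon lengths are unions of GENCODE M21 exons. Of each further list, genes of at least 5 CPM whose groups did not overlap were named by smallest p, up to 6 a list, with 8 genes named whatever their values. Summed markers of pericytes and smooth muscle (135 to 232 CPM), mesothelium (2.13 to 90.5), adipocytes (9.08 to 25.0) and acinar cells (1.27 to 5.64) were also computed.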

Additional observations from a re-analysis of the deposited data

How the results depend on the processing

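With all 4 libraries, normalization factors, count filters, limma voom and the replicate block changed no member's sign and called 0 members; DESeq2 called 627 rows, 1 of them a member (Tll1, log2 fold change -2.93, adjusted p = 1.21e-12), where Tll1's adjusted p was at most 0.263 in the other 7 settings. The median of the fibrillar procollagens turned positive with limma voom (0.13) and the replicate block (0.12); the block called 0 rows, and the labels do not say that replicate numbers pair the libraries (deviations of the libraries numbered 1 correlated at 0.14 across genes). Leaving out each library in turn, with the lone library assumed to vary like the other group, gave 0 to 835 rows called and 0 to 1 members called; the call was Tll1 without wild type replicate 2 (adjusted p = 0.0127), against 0.104 to 0.987 without the others. The log2 fold changes ran from -3.27 to -2.48 for Tll1, from -0.46 to 0.18 for Tll2, from -0.22 to 0.93 for Bmp1, from -1.30 to -0.50 for Pcolce and from -0.33 to 0.10 for Pcolce2. List medians ran from -0.25 to -0.025 (fibrillar procollagens), -0.61 to 0.37 (other substrates), -0.41 to 0.37 (regulators) and -0.11 to 0.40 (other proteases). The median of the other substrates was -0.26 with no count filter, where Dmp1, Dspp and Mstn, at 8 counts or less in any library, also entered. The cause of these shifts was not tested. With 82 counts in 1 library, depth limits Tll2 most.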
